A study of Mus musculus with 14 samples.

Results

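Enzymes that modify histones and motors that move nucleosomes were followed as 1 group of 76 genes, out of 22232 genes in a table of RNA levels of activated mouse B cells. The genes were taken by symbol alone, as every gene named Kdm, Hdac, Sirt, Chd or Prmt with a number, every Setd with a number or a b, and every Smarc gene, and the rule that picks them uses no expression value. They filled 77 of the 22295 rows of the table, since Hdac4 had 2 rows under 1 Ensembl identifier, and 71 of the 77 rows were expressed highly enough to be tested. The comparison behind the study is what loss of the microRNA miR-155, or of its pairing site in the transcription factor PU.1 alone, does to B cells on their way to antibody secretion.

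The RNA was polyadenylated RNA from splenic B cells, purified by negative selection and held in culture for 4 days under stimulation by IL-4 (10 ng/ml) together with LPS (5 µg/ml). Of the 14 libraries, 5 came from PU.1[155-/155-] mice (PU.1 KI, a knock-in whose PU.1 gene has lost the miR-155 site in its 3′ UTR), 5 from miR-155[-/-] mice (miR-155 KO) and 4 from wild type mice (WT). All 3 genotypes received the same stimulus, the replicates are called biological in the design text, and strain, sex and age are not stated there. The labels name no Cre line for either allele, so the mutations are read as present in the whole mouse, and effects from before the culture cannot be told apart from effects within it.

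Histone tails carry acetyl and methyl groups that change how DNA is packed and which proteins bind it. Histone deacetylases (Hdac) and sirtuins (Sirt) take acetyl groups off, lysine demethylases (Kdm) take methyl groups off, and Setd and Prmt enzymes put methyl groups on lysines and arginines. Smarc genes encode mainly subunits of the SWI/SNF (BAF) and ISWI remodellers and Chd genes encode chromodomain remodellers, all of which spend ATP to slide, eject or space nucleosomes. Activated B cells use many of these complexes as partners of transcription factors when they switch antibody class and when they become plasma cells.

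miR-155 represses mRNAs that pair with its seed, bases 2 to 8, so the 3′ UTRs of the group were searched for the complement of the seed. The mature strand is shown first, from RefSeq (GRCm38.p6, chr16:84714143-84714165, plus strand), with the seed in capitals. The sites are shown with their flanks on the strand of the mRNA, with the paired bases in capitals. They are printed because they are the sites of the 7 tested genes with a match of 7 or 8 bases that includes the whole seed.
mmu-miR-155-5p: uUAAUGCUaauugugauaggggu
Hdac9 first site: atacatatgaaAGCATTAAtcgcacacttc
Hdac9 second site: tggtctcactcAGCATTAgcccttctctc
Kdm2a: aattaaatgtaAGCATTAAgggaatgagtc
Smarca4: gagtctctaccAGCATTAActgtctagaga
Hdac4: tgtgagctgaaAGCATTAcctaccatata
Hdac2: cttttagactcAGCATTAgaacagcagag
Smarca5: gaaaaagatttAGCATTAtgatttagcca
Chd7: aaagctaaaacAGCATTAcctcagctctg

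The windows lie, in GRCm38 and on the strand given, in the annotated 3′ UTRs of Hdac9 (chr12:34049807-34049836 and chr12:34048947-34048975, minus), Kdm2a (chr19:4316401-4316430, minus), Smarca4 (chr9:21703145-21703174, plus), Hdac4 (chr1:91930540-91930568, minus), Hdac2 (chr10:36994907-36994935, plus), Smarca5 (chr8:80699449-80699477, minus) and Chd7 (chr4:8867461-8867489, plus). AGCATTAA is the match of 8 bases, found in the first Hdac9 site, Kdm2a and Smarca4, and AGCATTA is the match of 7 bases contained in it. Only the mRNA strand of the longest annotated 3′ UTR of each gene was searched. Of the 70 tested genes of the group 7 had such a match, which is 10%, and of 9469 tested genes with an annotated UTR 865 had one, which is 9.14%. Matches to the seed in this group were therefore about as frequent as among all genes. Of Hdac4 and Sirt1, which have been reported elsewhere as miR-155 targets, Hdac4 held the 7-base match and the 1631 bases searched for Sirt1 held neither.

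Sequencing depth, recovered from the smallest steps of the RPKM values, lay between 31.4 and 52.3 M reads. RPKM is the number of reads per kilobase of gene scaled to that depth, so levels of different genes can be compared on it. The first principal component held 66.1% of the variance and placed miR-155 KO libraries between 19.9 and 27.7, PU.1 KI libraries between -13.1 and -9.77 and WT libraries between -18.2 and -15.4. The value of 19.9 belonged to library 5 of miR-155 KO, whose companions reached at least 24.2, and that of -15.4 to library 1 of WT, whose companions were at -18.1 or lower, so counts are also given without these libraries. All 7 B cell markers searched passed the filter, and their summed level was 1547 to 1800 RPKM in PU.1 KI, 1356 to 1472 in miR-155 KO and 1504 to 1739 in WT. Of these 7, 0 were higher and 4 lower in miR-155 KO than in WT, with a median log2 fold change of -0.37. In PU.1 KI against WT 2 were higher and 1 lower, beside 23.7% and 4.03% of all rows. Of 18 proliferation genes, mostly of DNA replication and mitosis, 1 was higher and 13 were lower in miR-155 KO than in WT, with a median log2 fold change of -0.33. Of all rows tested 27.2% were higher and 35.3% lower in that comparison, with a median of -0.05. Among markers of other cells that a spleen preparation can hold, 1 of 7 for T cells (Lck), 1 of 6 for macrophages (Cd68), 2 of 4 for dendritic cells (Flt3 and Zbtb46) and 1 of 4 for stroma (Pecam1) passed the filter, and none did for neutrophils, NK cells or erythroid cells. Of 5 plasmablast markers 1 was higher and 3 were lower in miR-155 KO than in WT, beside 27.2% and 35.3% of all rows. The summed level of these 5 was 224 to 344 RPKM in PU.1 KI, 267 to 406 in miR-155 KO and 417 to 501 in WT. The summed dendritic cell markers were 25.3 to 32 RPKM in PU.1 KI, 23.7 to 30.4 in miR-155 KO and 15.7 to 20.1 in WT. The summed macrophage markers were 10.6 to 12.2 RPKM in PU.1 KI, 6.09 to 6.76 in miR-155 KO and 6.58 to 7.66 in WT, nearly all of it Cd68, and the summed stroma markers were 6.77 to 7.55 in PU.1 KI, 3.19 to 3.96 in miR-155 KO and 6.49 to 7.31 in WT, nearly all of it Pecam1. The summed T cell markers were 6.16 to 7.49 RPKM in PU.1 KI, 6.65 to 7.69 in miR-155 KO and 7.07 to 8.64 in WT, most of it Lck. Some markers too low to be tested had higher means in miR-155 KO than in WT, among them Cd5 (1.03 against 0.231 RPKM), Cd8a (0.645 against 0.0307), Emr1 (0.738 against 0.2), Itgam (0.331 against 0.0499) and Pdgfrb (0.23 against 0.0932), while Cd3e averaged 0.0184 RPKM or less in each genotype. The part of these markers in the results below was not tested.

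The group was broadly expressed in these cells. By mean over the 14 libraries, the highest member of each class was Chd4 at 70.2 RPKM, Smarcd2 at 41.2, Prmt1 at 33.9, Hdac1 at 23.7, Setd8 at 23.0, Kdm1a at 19.3 and Sirt2 at 17.6 RPKM. Of the 77 rows, 6 failed the filter of at least 1 RPKM in at least 4 libraries and were not tested. Prmt8, an arginine methyltransferase known from brain, was listed at 0 in all 14 libraries, and Smarca1, the sister motor of Smarca5, was listed at 0 in all but WT library 3. Chd5 averaged 0.0235 RPKM in PU.1 KI, 0.0319 in miR-155 KO and 0.0374 in WT, and Kdm4d averaged 0.328 in PU.1 KI, 0.319 in miR-155 KO and 0.371 in WT. Sirt5, a mitochondrial sirtuin, fell just short of the filter at 0.922 RPKM in PU.1 KI, 0.762 in miR-155 KO and 0.86 in WT. Smarcd3 averaged 0.183 RPKM in PU.1 KI, 0.378 in miR-155 KO and 0.15 in WT. The tested rows were 15 of 16 Kdm, 12 of 12 Hdac, 6 of 7 Sirt, 11 of 11 Setd, 7 of 8 Prmt, 11 of 13 Smarc and 9 of 10 Chd rows.

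Loss of the miR-155 site in PU.1 alone moved the group little. In PU.1 KI against WT, 17 of the 71 tested rows were higher and 1 was lower (limma on log2(RPKM + 0.5), Benjamini-Hochberg adjusted p under 0.05), and none of these changes reached 1.5-fold in limma's fit, at which 2.72% of all rows were called, 2.22% higher and 0.499% lower. Among all 9627 rows tested, 23.7% were higher, 4.03% were lower and 27.7% were called in either direction, against 25.4% of the group. The median log2 fold change was 0.08 in the group and 0.08 over all genes, so neither the share called nor the middle of the changes set the group apart. The lower row was Smarca2, named here because it was alone.

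Of those 17 higher calls, 9 held however the libraries were scaled. PU.1 KI libraries had size factors, the median ratio of a library's genes to their mean over libraries, of 0.984 to 1.13 against 0.936 to 1.03 in WT. Rescaled by these factors, 10 members were higher and 13 lower, and after quantile normalization 9 were higher and 13 lower. Of all rows 17.4% were higher and 15.8% lower after rescaling by these factors, and 15.8% and 16.1% after quantile normalization. Over all genes called in PU.1 KI against WT, the higher ones made up 85.5% as deposited, 52.5% after rescaling by median of ratios and 49.5% after quantile normalization. Called higher under all 3 scalings were Chd7, Hdac4 (its long row), Kdm3a, Kdm3b, Kdm4a, Kdm4b, Kdm5b, Prmt2 and Sirt2, and Smarca2 was lower under all 3. Another 11 members, not called as deposited, were lower under both other scalings, and they were Hdac2, Kdm1b, Prmt1, Prmt3, Prmt6, Setd1a, Setd4, Setdb1, Smarca5, Smarcc1 and Smarce1. Leaving out WT library 1 left 9 higher members, and leaving out PU.1 KI library 3 left 10. With miR-155 KO library 5 left out of the fit, 18 members were higher and 3 lower in PU.1 KI than in WT.

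Loss of miR-155 itself moved the group in both directions. In miR-155 KO against WT, 21 members were higher and 20 lower, beside 27.2% higher and 35.3% lower among all rows tested. In either direction 57.7% of the group was called, against 62.5% of all rows. A change of at least 1.5-fold was reached by 5 higher members, Chd3, Kdm6b, Hdac9, Hdac11 and Kdm5b, and by 1 lower member, Prmt6, while 7.57% of all rows were higher and 5.73% lower by that much. The median log2 fold change was -0.01 in the group and -0.05 over all genes. All 21 higher calls and 18 of the 20 lower calls held under both other scalings, and Hdac7 and Sirt2 were not called lower after quantile normalization. Without miR-155 KO library 5 the counts were 21 higher and 22 lower, and without WT library 1 they were 22 higher and 23 lower.

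miR-155 KO against PU.1 KI gave 12 higher and 28 lower members, beside 17.9% higher and 46.4% lower among all rows, 64.3% in either direction. Only Chd3, Kdm6b and Hdac9 passed 1.5-fold, all higher in miR-155 KO, where 9.88% of all rows did so, 4.29% higher and 5.59% lower. Here the scaling moved the median of all genes, from -0.13 as deposited to -0.0039 by median of ratios and to -0.02 by quantile normalization, and the members' counts moved with it, to 26 higher and 19 lower and to 26 higher and 16 lower. Of all rows 31.5% were higher and 31.3% lower by median of ratios, and 29.4% and 33.4% by quantile normalization. The 12 higher calls held under both, and 15 of the 28 lower calls did. The share of higher calls over all genes was 27.9% as deposited, 50.2% by median of ratios and 46.8% by quantile normalization. The PU.1 KI and miR-155 KO comparisons share the same 4 WT libraries, so their values are set side by side below and their likeness is not counted as a result. Fewer cells of a kind and less RNA per cell cannot be told apart in these bulk libraries.

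**Figure D1:**
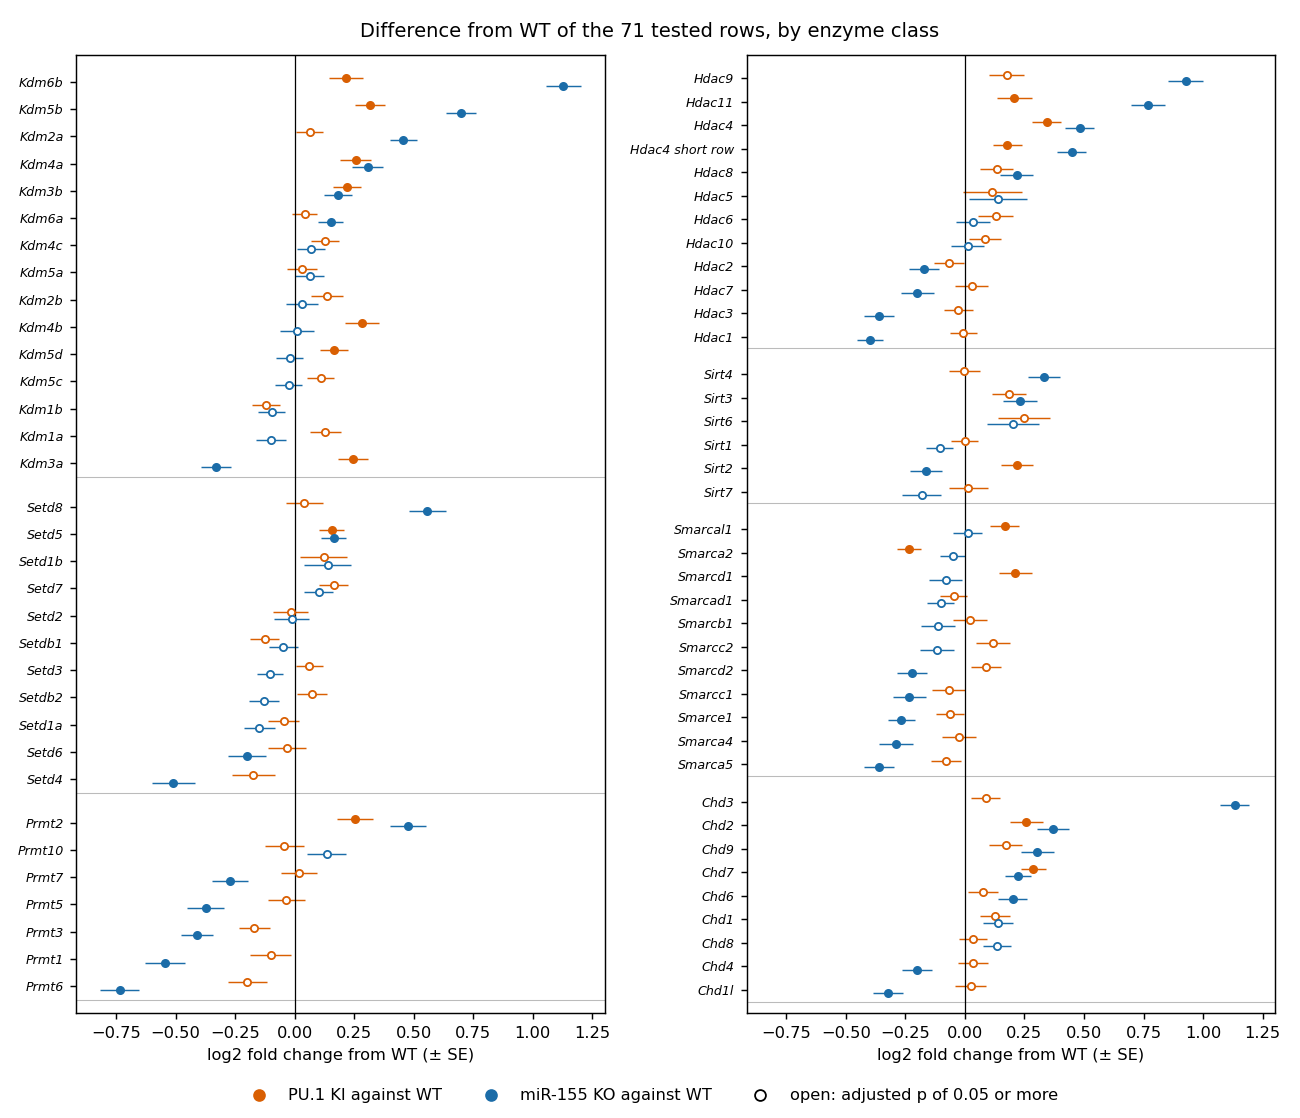
log2 fold change ± SE from WT on the log2(RPKM + 0.5) scale for the 71 tested rows, by class, in PU.1 KI (orange) and miR-155 KO (blue). Filled points had an adjusted p under 0.05. Kdm6b and Chd3 lie furthest to the right at 1.13 each in miR-155 KO, Prmt6 furthest to the left at -0.73, and PU.1 KI points stay between -0.23 and 0.34.

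**Figure D2:**
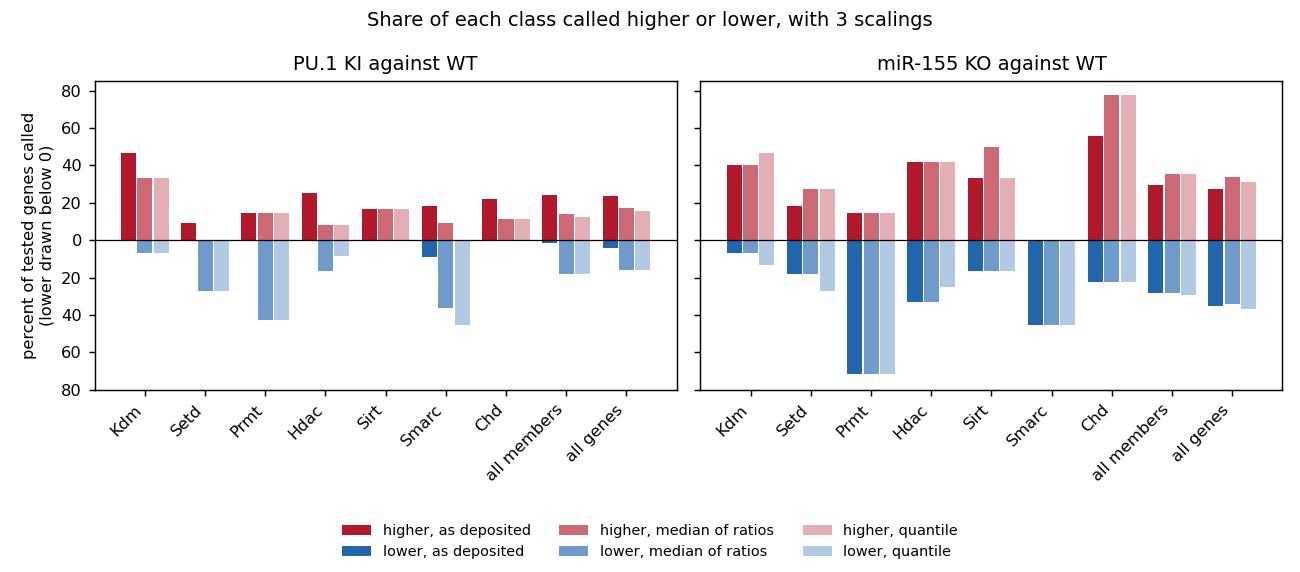
Percent of tested rows called higher (above 0) or lower (below 0) in each class, with all members and all genes at the right, for the values as deposited and after both other scalings. In miR-155 KO the Prmt bars lie mostly below 0 and the Smarc bars wholly below 0 under all 3 scalings, and in PU.1 KI against WT the lower members number 1 as deposited and 13 under each other scaling. Of all rows 4.03% were lower in PU.1 KI as deposited, 15.8% by median of ratios and 16.1% by quantile normalization.

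Against WT, lysine demethylases were more often higher than lower in the values as deposited. In miR-155 KO against WT, 6 of 15 tested Kdm rows were higher and 1 was lower, beside 27.2% and 35.3% of all rows. In PU.1 KI against WT 7 were higher and none lower as deposited, beside 23.7% and 4.03% of all rows. Under each other scaling 5 were higher and 1 lower in PU.1 KI against WT. Over all rows those shares were 17.4% and 15.8% by median of ratios and 15.8% and 16.1% by quantile normalization. In miR-155 KO against PU.1 KI, 3 Kdm rows were higher and 5 lower as deposited, beside 17.9% and 46.4% of all rows. Kdm6b, which erases the methyl mark laid down by Polycomb, had 2.29, 2.20, 2.56, 2.69 and 2.15 RPKM in PU.1 KI, 5.15, 5.21, 5.11, 4.69 and 4.41 in miR-155 KO, and 1.81, 2.10, 2.22 and 1.78 in WT. Every miR-155 KO library lay above every other library, and PU.1 KI overlapped WT. The log2 fold change of Kdm6b was 1.13 ± 0.07 in miR-155 KO against WT (adjusted p = 1.36e-10) and 0.22 ± 0.07 in PU.1 KI against WT (adjusted p = 0.0334). The PU.1 KI call was lost under both other scalings and without any 1 of PU.1 KI libraries 3 and 4 and WT libraries 1 and 4, with an adjusted p of up to 0.112.

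Kdm5b, which erases a methyl mark of active promoters, had 5.24, 5.19, 5.18, 5.54 and 5.55 RPKM in PU.1 KI, 7.23, 6.84, 7.80, 7.54 and 6.28 in miR-155 KO, and 4.30, 3.81, 4.12 and 4.58 in WT. The 3 genotypes did not overlap, with PU.1 KI between the other 2. Its log2 fold change from WT was 0.32 ± 0.06 in PU.1 KI (adjusted p = 0.000991) and 0.70 ± 0.06 in miR-155 KO (adjusted p = 1.73e-08). Kdm2a, a demethylase that binds CpG islands and holds the 8-base site printed above, had 10.1, 11.0, 11.0, 12 and 11.3 RPKM in PU.1 KI, 13.9, 14.6, 14.4, 14.7 and 16.0 in miR-155 KO, and 10.6, 10.2, 10.6 and 11.0 in WT. All 5 miR-155 KO libraries were above the rest, a change of 0.46 ± 0.06 on the log2 scale from WT.

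Kdm3a went opposite ways in the mutants. This demethylase of a repressive histone mark had 9.95, 10.1, 10.1, 9.81 and 10.6 RPKM in PU.1 KI, 6.14, 6.05, 7.02, 7.25 and 6.78 in miR-155 KO, and 8.01, 7.92, 8.56 and 9.43 in WT. No 2 genotypes overlapped. Relative to WT it was higher in PU.1 KI, by 0.25 ± 0.06 (adjusted p = 0.00658), and lower in miR-155 KO, where it fell by 0.33 on the log2 scale (SE 0.06, adjusted p = 0.000162), and it kept both calls under all 3 scalings. Against PU.1 KI the miR-155 KO value fell by 0.57 on the log2 scale (SE 0.06, adjusted p = 1.24e-07).

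Kdm4a and Kdm4b, which erase methyl marks of heterochromatin, parted in miR-155 KO. Kdm4a had 16.5, 17.0, 18.7, 20.4 and 18.1 RPKM in PU.1 KI, 18, 19.0, 19.0, 18 and 19.7 in miR-155 KO, and 14.1, 14.5, 15.4 and 16.4 in WT, so that both mutants lay wholly above WT, with log2 fold changes from WT of 0.26 ± 0.06 in PU.1 KI (adjusted p = 0.00526) and 0.31 ± 0.06 in miR-155 KO (adjusted p = 0.000363). Kdm4b had 7.08, 7.56, 8.15, 7.59 and 7.21 RPKM in PU.1 KI, 6.10, 6.38, 5.95, 5.67 and 6.57 in miR-155 KO, and 5.02, 6.28, 6.53 and 6.64 in WT. It was higher in PU.1 KI by 0.28 ± 0.07 (adjusted p = 0.00564) and stood at 0.0094 ± 0.07 in miR-155 KO (adjusted p = 0.918), where its values overlapped WT.

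Kdm1a (LSD1), the most abundant demethylase of the group, was not called against WT in either mutant. It had 19.0, 19.6, 20.8, 23.4 and 21.9 RPKM in PU.1 KI, 16.8, 17.0, 18.2, 18.3 and 18.4 in miR-155 KO, and 18.3, 18.2, 18.8 and 20.9 in WT, and both mutants overlapped WT. The sex-linked members give a check on the libraries. Kdm5d, on the Y chromosome, had 6.43, 6.44, 6.33, 6.35 and 7.36 RPKM in PU.1 KI, 5.51, 5.33, 6.19, 5.90 and 5.66 in miR-155 KO, and 5.75, 5.74, 6.21 and 5.53 in WT, so every library held RNA of a Y-linked gene. Its PU.1 KI call against WT (0.17 ± 0.06, adjusted p = 0.0407) was lost under both other scalings and without any 1 of 6 libraries, PU.1 KI 2, 3 and 5 and WT 1, 2 and 4, with an adjusted p of up to 0.12.

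Kdm6a, the X-linked relative of Kdm6b, had 5.47, 5.51, 5.72, 5.49 and 5.62 RPKM in PU.1 KI, 5.75, 5.74, 6.25, 6.30 and 6.18 in miR-155 KO, and 5.64, 5.10, 5.22 and 5.61 in WT. Its miR-155 KO libraries were all above WT by a small step of 0.15 ± 0.05 (adjusted p = 0.0152), a call that was lost without WT library 2 or 3 (adjusted p of up to 0.0621). How reads shared by Kdm5c and Kdm5d, or by Kdm6a and its Y-linked copy, were divided was not stated in the labels. Kdm3b was higher in both mutants, at 16.2 ± 1.2 RPKM in PU.1 KI and 15.7 ± 0.6 in miR-155 KO against 13.8 ± 0.8 in WT (SD). The other 5 tested demethylases, Kdm1b, Kdm2b, Kdm4c, Kdm5a and Kdm5c, were called against WT in neither mutant as deposited, and their log2 fold changes lay between -0.12 and 0.14.

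**Figure D3:**
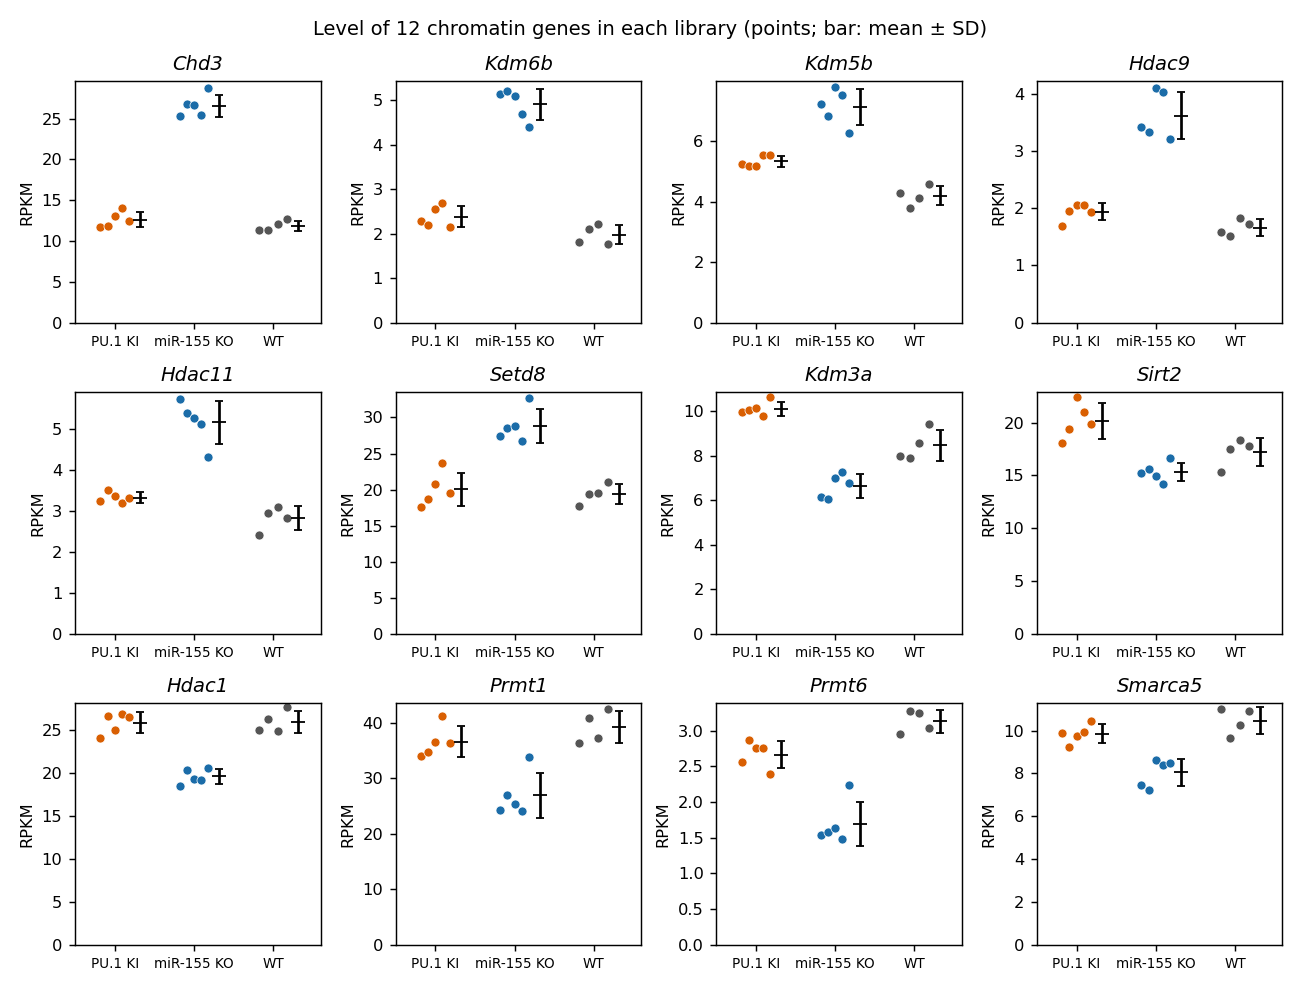
RPKM of 12 members in each library (points), with mean ± SD beside them, in PU.1 KI (n = 5), miR-155 KO (n = 5) and WT (n = 4), on axes that start at 0. The miR-155 KO points of Chd3, Kdm6b, Kdm5b, Hdac9, Hdac11 and Setd8 lie above all others. Those of Hdac1, Kdm3a, Prmt1, Prmt6 and Smarca5 lie below all others, Prmt1 by a narrow gap. Kdm5b, Hdac11, Kdm3a and Prmt6 put the 3 genotypes at separate heights.

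Deacetylases moved both ways. Of 12 tested Hdac rows 5 were higher and 4 lower in miR-155 KO against WT, beside 27.2% higher and 35.3% lower among all rows. The higher ones were both rows of Hdac4 with Hdac8, Hdac9 and Hdac11, and the lower ones were Hdac1, Hdac2, Hdac3 and Hdac7. Hdac9, a class IIa deacetylase that binds Mef2 factors, had 1.70, 1.96, 2.05, 2.05 and 1.93 RPKM in PU.1 KI, 3.42, 3.33, 4.09, 4.03 and 3.21 in miR-155 KO, and 1.58, 1.51, 1.82 and 1.72 in WT. All miR-155 KO libraries were above 3 RPKM and all others were at 2.05 or below. The log2 fold change from WT was 0.17 ± 0.07 in PU.1 KI (adjusted p = 0.0878, not called) and 0.93 ± 0.07 in miR-155 KO (adjusted p = 3.07e-09). Hdac9 holds both sites printed above, one of 8 and one of 7 bases.

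Hdac4, its class IIa relative, was higher in both mutants. The long row (NCBIM37 chr1:93829334-94044970, minus strand) had 3.98, 3.82, 4.51, 4.18 and 3.82 RPKM in PU.1 KI, 4.62, 4.22, 4.35, 4.43 and 4.97 in miR-155 KO, and 2.84, 3.13, 3.21 and 3.18 in WT. The short row, which covers chr1:93825362-93827753 beyond the 3′ end of the long one, had 2.62, 2.48, 2.42, 2.94 and 2.56 RPKM in PU.1 KI, 3.38, 3.22, 3.16, 3.12 and 3.30 in miR-155 KO, and 2.07, 2.13, 2.34 and 2.42 in WT. In the long row both mutants lay wholly above WT, and in the short row miR-155 KO lay above all other libraries while the lowest PU.1 KI and the highest WT library were both at 2.42 RPKM.

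The long row of Hdac4 changed by 0.34 ± 0.06 in PU.1 KI (adjusted p = 0.00032) and by 0.48 ± 0.06 in miR-155 KO (adjusted p = 1.45e-06). The short row changed by 0.18 ± 0.06 in PU.1 KI (adjusted p = 0.0327) and by 0.45 ± 0.06 in miR-155 KO (adjusted p = 2.95e-06). The PU.1 KI call of the short row was lost under both other scalings and without PU.1 KI library 4 or WT library 1 or 2 (adjusted p of up to 0.119). Between miR-155 KO and PU.1 KI the long row differed by 0.14 ± 0.06 (adjusted p = 0.0429), a call lost without any 1 of 7 libraries (adjusted p of up to 0.109), which were PU.1 KI 1, 2 and 5, miR-155 KO 1, 4 and 5 and WT 2.

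Hdac11, the one class IV deacetylase, had 3.22, 3.5, 3.36, 3.18 and 3.32 RPKM in PU.1 KI, 5.72, 5.37, 5.26, 5.10 and 4.30 in miR-155 KO, and 2.42, 2.94, 3.08 and 2.82 in WT. The 3 genotypes did not overlap, with miR-155 KO at the top. It changed by 0.77 ± 0.07 in miR-155 KO (adjusted p = 2.69e-08) and by 0.21 ± 0.07 in PU.1 KI (adjusted p = 0.0376). The PU.1 KI call was lost under both other scalings and without any 1 of PU.1 KI libraries 2, 3 and 5 and WT libraries 1 and 4 (adjusted p of up to 0.166).

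Hdac1, Hdac2 and Hdac3, catalytic subunits of the NuRD, Sin3, CoREST and NCoR corepressors, were lower in miR-155 KO. Hdac1, the most abundant, had 24.1, 26.7, 25, 26.9 and 26.6 RPKM in PU.1 KI, 18.5, 20.4, 19.3, 19.2 and 20.6 in miR-155 KO, and 25, 26.3, 24.9 and 27.7 in WT. Every miR-155 KO library was below every other library, and PU.1 KI overlapped WT. The level in miR-155 KO fell by 0.40 on the log2 scale from WT (SE 0.05, adjusted p = 4.31e-06), and PU.1 KI stood at -0.0062 ± 0.05 (adjusted p = 0.948). Hdac3 averaged 18 ± 1.2 RPKM in PU.1 KI, 14.2 ± 1.0 in miR-155 KO and 18.4 ± 0.9 in WT (SD), and Hdac2 averaged 7.41 ± 0.67 in PU.1 KI, 6.85 ± 0.43 in miR-155 KO and 7.77 ± 0.28 in WT. Hdac8, also of class I, was the exception, at 5.11 ± 0.57 RPKM in miR-155 KO against 4.31 ± 0.19 in WT (adjusted p = 0.0116). The call of Hdac2 was lost without miR-155 KO library 1 or 2 or WT library 4 (adjusted p of up to 0.0725), and that of Hdac7, at 20.9 ± 1.1 RPKM in miR-155 KO against 24.2 ± 2.4 in WT, without WT library 2 or 3 (adjusted p of up to 0.0765). Hdac5, Hdac6 and Hdac10 were called against WT in neither mutant.

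Sirtuins, which need NAD to take off acetyl groups, changed by no more than 0.33 on the log2 scale from WT. Against WT, 2 of 6 tested sirtuins were higher and 1 lower in miR-155 KO, beside 27.2% and 35.3% of all rows. In PU.1 KI 1 was higher, beside 23.7% of all rows. Sirt2, a mainly cytoplasmic deacetylase and the most abundant sirtuin, had 18, 19.4, 22.5, 21 and 19.9 RPKM in PU.1 KI, 15.3, 15.6, 15.0, 14.2 and 16.6 in miR-155 KO, and 15.4, 17.5, 18.4 and 17.8 in WT. Both mutants overlapped WT, PU.1 KI toward its high side and miR-155 KO toward its low side. It was higher in PU.1 KI by 0.22 ± 0.07 (adjusted p = 0.0213), a call lost without PU.1 KI library 3 or WT library 1 (adjusted p of up to 0.1).

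In miR-155 KO, Sirt2 fell by 0.16 on the log2 scale from WT (SE 0.07, adjusted p = 0.0431). This call was lost after quantile normalization and without any 1 of 9 libraries (adjusted p of up to 0.134), which were PU.1 KI 2 and 5, miR-155 KO 1, 2, 3 and 4 and WT 2, 3 and 4. Between the mutants the difference of -0.38 ± 0.06 (adjusted p = 4.4e-05) held under all 3 scalings. Sirt1, the nuclear sirtuin reported elsewhere as a miR-155 target, had 3.45, 3.94, 3.45, 3.77 and 3.67 RPKM in PU.1 KI, 3.18, 3.17, 3.28, 3.61 and 3.59 in miR-155 KO, and 3.77, 3.57, 3.54 and 3.74 in WT. The genotypes overlapped, and neither mutant was called against WT (adjusted p = 0.998 in PU.1 KI and 0.113 in miR-155 KO), though miR-155 KO was called lower after quantile normalization (adjusted p = 0.0337). Mitochondrial Sirt4 averaged 1.33 ± 0.08 RPKM in PU.1 KI, 1.81 ± 0.11 in miR-155 KO and 1.34 ± 0.15 in WT (SD), and Sirt3 was also higher in miR-155 KO than in WT (adjusted p = 0.00759). Sirt6 and Sirt7 were called against WT in neither mutant.

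Among the Setd lysine methyltransferases, Setd8 stood out in size. It adds a single methyl group to histone H4 and is needed for chromatin to condense at mitosis. Its levels were 17.6, 18.7, 20.8, 23.6 and 19.5 RPKM in PU.1 KI, 27.5, 28.5, 28.8, 26.7 and 32.8 in miR-155 KO, and 17.7, 19.4, 19.6 and 21.1 in WT. All miR-155 KO libraries exceeded all others, and PU.1 KI overlapped WT. The log2 fold change from WT was 0.56 ± 0.08 in miR-155 KO (adjusted p = 4.94e-06) and 0.04 ± 0.08 in PU.1 KI (adjusted p = 0.743). Of the 11 tested Setd rows, 2 were higher in miR-155 KO than in WT, Setd8 and Setd5, and 2 were lower, Setd4 and Setd6. Among all rows 27.2% were higher and 35.3% lower in that contrast. In PU.1 KI only Setd5 was called as deposited, higher, where 23.7% of all rows were higher. That Setd5 call was lost under both other scalings and without any 1 of PU.1 KI libraries 3, 4 and 5 and the 4 WT libraries (adjusted p of up to 0.107). The Setd6 call was lost without any 1 of miR-155 KO libraries 1, 2, 3 and 4 and WT libraries 2, 3 and 4 (adjusted p of up to 0.0971). Setd4 was at the bottom of the class, at 1.51 ± 0.22 RPKM in PU.1 KI, 1.09 ± 0.17 in miR-155 KO and 1.76 ± 0.16 in WT (SD). Setd1a, Setd1b, Setd2, Setd3, Setd7, Setdb1 and Setdb2 were called against WT in neither mutant as deposited.

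Most arginine methyltransferases were lower in miR-155 KO. Of 7 tested Prmt genes, 5 were lower than in WT and 1 was higher, with a median log2 fold change of -0.37, beside 35.3% lower, 27.2% higher and a median of -0.05 over all rows, and the same counts came under all 3 scalings. In PU.1 KI against WT 1 was higher and none lower as deposited, beside 23.7% and 4.03% of all rows. Under each other scaling 1 was higher and 3 lower. Of all rows 17.4% were then higher and 15.8% lower by median of ratios, and 15.8% and 16.1% by quantile normalization. Prmt1, which makes most of the asymmetric dimethylarginine of cells, had 33.9, 34.7, 36.6, 41.3 and 36.4 RPKM in PU.1 KI, 24.3, 26.9, 25.4, 24.1 and 33.8 in miR-155 KO, and 36.3, 40.8, 37.3 and 42.5 in WT. All miR-155 KO libraries were below WT, and library 5 was nearest to it. Prmt1 fell in miR-155 KO by 0.54 on the log2 scale (SE 0.09, adjusted p = 2.03e-05) and stood at -0.10 ± 0.09 in PU.1 KI (adjusted p = 0.423).

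Prmt6, a nuclear arginine methyltransferase, had 2.55, 2.87, 2.75, 2.75 and 2.39 RPKM in PU.1 KI, 1.54, 1.58, 1.64, 1.48 and 2.23 in miR-155 KO, and 2.95, 3.28, 3.24 and 3.04 in WT. The 3 genotypes did not overlap, with WT highest, and miR-155 KO library 5 again stood nearest to the others. It fell in miR-155 KO by 0.73 on the log2 scale (SE 0.08, adjusted p = 2.37e-07). In PU.1 KI its change of -0.20 ± 0.08 was not called as deposited (adjusted p = 0.0753) and was called lower under both other scalings. Prmt5, which makes symmetric dimethylarginine, averaged 20.3 ± 1.5 RPKM in PU.1 KI, 16.0 ± 1.9 in miR-155 KO and 20.8 ± 1.5 in WT (SD), and Prmt3 and Prmt7 were lower in miR-155 KO as well.

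Prmt2 went the other way. It had 1.79, 2.21, 2.09, 2.05 and 1.86 RPKM in PU.1 KI, 2.43, 2.40, 2.39, 2.25 and 2.62 in miR-155 KO, and 1.29, 1.59, 1.84 and 1.70 in WT. The miR-155 KO libraries were all above the rest, and PU.1 KI overlapped WT by its lowest library. Its log2 fold change was 0.25 ± 0.07 in PU.1 KI (adjusted p = 0.0154, or 0.0829 without WT library 1) and 0.48 ± 0.07 in miR-155 KO (adjusted p = 1.88e-05). Prmt10 was called against WT in neither mutant.

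Some Smarc subunits were lower in miR-155 KO. Against WT 5 of 11 were lower and none higher in limma's fits under each of the 3 scalings, beside 35.3% lower and 27.2% higher among all rows as deposited, and these were Smarca4, Smarca5, Smarcc1, Smarcd2 and Smarce1 in the values as deposited. The median log2 fold change of the class was -0.12, beside -0.05 over all genes. Smarca5, the motor of ISWI remodellers, had 9.89, 9.22, 9.76, 9.95 and 10.5 RPKM in PU.1 KI, 7.46, 7.24, 8.63, 8.40 and 8.50 in miR-155 KO, and 11.0, 9.67, 10.2 and 10.9 in WT. Every miR-155 KO library lay below every other, a change of -0.36 ± 0.06 from WT (adjusted p = 5.39e-05).

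Smarcd2, a BAF subunit and the most abundant Smarc gene, had 40.9, 43.5, 45.7, 49.6 and 46.3 RPKM in PU.1 KI, 35.5, 36.0, 36.6, 35 and 38.2 in miR-155 KO, and 37.9, 43.0, 43.1 and 45.9 in WT. Only WT library 1 fell within the range of miR-155 KO. Smarcd2 fell in miR-155 KO by 0.22 on the log2 scale (SE 0.06, adjusted p = 0.0051) and stood at 0.09 ± 0.06 in PU.1 KI (adjusted p = 0.322). The BAF motor Smarca4 (BRG1), which holds an 8-base site, averaged 25.2 ± 2.2 RPKM in PU.1 KI, 20.9 ± 1.9 in miR-155 KO and 25.6 ± 1.6 in WT (SD).

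Its alternative motor Smarca2 (BRM) had 7.64, 7.66, 7.83, 8.13 and 8.17 RPKM in PU.1 KI, 8.46, 8.71, 9.42, 9.46 and 9.09 in miR-155 KO, and 9.45, 8.86, 9.35 and 9.82 in WT. All PU.1 KI libraries were below all others, a change of -0.23 ± 0.05 from WT (adjusted p = 0.00212). Smarca2 was thus also called higher in miR-155 KO than in PU.1 KI, by 0.18 ± 0.05 (adjusted p = 0.00299) and under all 3 scalings. In PU.1 KI Smarcal1 and Smarcd1 were higher than in WT as deposited, and neither call held under both other scalings. The Smarcal1 call was lost without any 1 of 9 libraries (adjusted p of up to 0.142), PU.1 KI 3, 4 and 5, miR-155 KO 2, 3 and 4 and WT 1, 2 and 3, and the Smarcd1 call without any 1 of PU.1 KI 3, 4 and 5 and WT 1 and 3 (adjusted p of up to 0.0778). Smarcad1, Smarcb1 and Smarcc2 were called against WT in neither mutant as deposited. In miR-155 KO against WT 13 of 18 proliferation genes were lower, among them Mcm3 and Mcm7, and 1 was higher, beside 35.3% and 27.2% of all rows. In PU.1 KI against WT 2 of them were lower and 2 higher, beside 4.03% and 23.7% of all rows. The part of these genes in the lower Smarc, Prmt and class I Hdac levels of miR-155 KO was not tested.

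Of the chromodomain remodellers, Chd3 changed most. It had 11.7, 11.9, 13.1, 14 and 12.5 RPKM in PU.1 KI, 25.4, 26.8, 26.6, 25.4 and 28.7 in miR-155 KO, and 11.3, 11.3, 12.1 and 12.7 in WT. The lowest miR-155 KO library was far above the highest of the others, and PU.1 KI overlapped WT. Its log2 fold change from WT was 1.13 ± 0.06 in miR-155 KO (adjusted p = 8.86e-12) and 0.09 ± 0.06 in PU.1 KI (adjusted p = 0.316). The 1078 bases searched of its 3′ UTR held no match to the miR-155 seed, and neither did the 1318 bases searched of Kdm6b.

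Chd4, the alternative motor of NuRD and the most abundant member of the whole group, moved a little in the opposite direction. It had 67.7, 72.2, 76.8, 81.4 and 75.6 RPKM in PU.1 KI, 61.7, 61.3, 63.1, 61.7 and 69.2 in miR-155 KO, and 68.5, 71.1, 73.5 and 78.6 in WT. Only library 5 of miR-155 KO reached the range of WT. Chd4 fell in miR-155 KO by 0.20 on the log2 scale (SE 0.06, adjusted p = 0.00882) and stood at 0.03 ± 0.06 in PU.1 KI (adjusted p = 0.728).

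Chd2, a remodeller of active genes, had 14.3, 13.5, 14.4, 13.9 and 16.1 RPKM in PU.1 KI, 14.9, 14.4, 17.2, 17.6 and 14.3 in miR-155 KO, and 12.4, 11.5, 12.3 and 11.8 in WT. Both mutants lay wholly above WT, by 0.26 ± 0.07 in PU.1 KI (adjusted p = 0.00814) and 0.37 ± 0.07 in miR-155 KO (adjusted p = 0.000115), and the PU.1 KI call was lost under both other scalings. Chd7, an enhancer-bound remodeller mutated in human CHARGE syndrome, had 9.61, 10.5, 11.0, 10.8 and 11.2 RPKM in PU.1 KI, 9.89, 9.51, 10.5, 10.3 and 10.4 in miR-155 KO, and 8.38, 8.42, 9.03 and 8.57 in WT. Again both mutants were wholly above WT, by 0.29 ± 0.05 in PU.1 KI (adjusted p = 0.000527) and 0.22 ± 0.05 in miR-155 KO (adjusted p = 0.00147), and these calls held under all 3 scalings. Of 9 tested Chd genes 5 were higher and 2 lower in miR-155 KO against WT, beside 27.2% and 35.3% of all rows. Chd6 and Chd9 were the other higher ones and Chd1l the other lower one. Chd1 and Chd8 were called against WT in neither mutant as deposited.

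A ratio of 2 genes within 1 library is unchanged when the library is multiplied by a factor, apart from the small effect of the added 0.5 RPKM, though not under quantile normalization. On that scale 13 pairs of related members were compared in all 3 contrasts with a two-sided exact permutation test (39 tests, Benjamini-Hochberg over all 39). In all, 19 tests had an adjusted p under 0.05, each with an adjusted p of 0.0326. Pairs of other genes were not tested, so whether 19 of 39 is more than pairs at large would give is not known. The exact p cannot go below 0.0159 for a mutant against WT or 0.00794 between the mutants. Each called ratio was at that limit, which is reached only where the genotypes do not overlap. The log2 ratio of Chd3 to Chd4 ran from -2.55 to -2.49 in PU.1 KI, from -1.26 to -1.18 in miR-155 KO and from -2.60 to -2.54 in WT. Chd3 thus gained 1.33 ± 0.02 (SE) on Chd4 in miR-155 KO against WT, while the gain in PU.1 KI against WT was 0.05 ± 0.02 and was not called (exact p = 0.0635).

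There were 8 called ratios in miR-155 KO against WT, and 0 to 8 when 1 library was left out. In this contrast limma called 62.5% of all single rows. Kdm6b gained 0.98 ± 0.11 on Kdm6a, Kdm5b gained 0.72 ± 0.10 on Kdm5c and Kdm3b gained 0.51 ± 0.03 on Kdm3a. Hdac2 gained 0.23 ± 0.05 on Hdac1 and Prmt5 gained 0.17 ± 0.04 on Prmt1, so within those pairs the more abundant partner fell further. The ratio of Kdm2b to Kdm2a changed by -0.42 ± 0.06 and that of Kdm4b to Kdm4a by -0.30 ± 0.06.

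In PU.1 KI against WT 2 ratios were called, both in BAF, and leaving out any 1 of the 14 libraries left 0 called by the exact permutation test, whose smallest p then rises or whose adjustment over 39 tests changes. The ratio of the motors Smarca2 to Smarca4 had a mean of -1.61 in PU.1 KI and -1.40 in WT, a change of -0.21 ± 0.07, and that of the core subunits Smarcc2 to Smarcc1 had a mean of 0.25 in PU.1 KI and 0.07 in WT, a change of 0.19 ± 0.06. In miR-155 KO the Smarca2 to Smarca4 ratio had a mean of -1.16, which was 0.45 ± 0.08 above PU.1 KI and called, and 0.24 ± 0.08 above WT and not called (exact p = 0.0317, adjusted p = 0.0563). The other 8 called ratios of miR-155 KO against PU.1 KI were the 8 called against WT. Ratios of Smarcd2 to Smarcd1, Hdac5 to Hdac7 and Setd1b to Setd1a were called in no contrast.

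**Figure D4:**
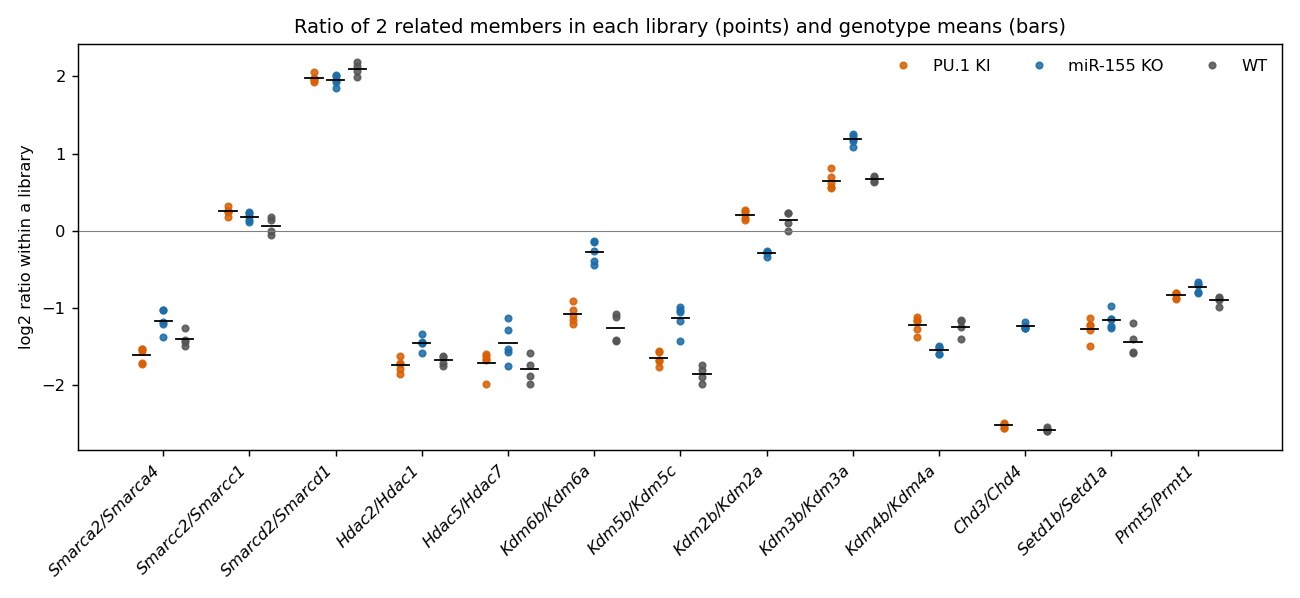
log2 ratio of 2 related members within each library (points) and genotype means (bars) for 13 pairs, on the scale log2((RPKM + 0.5)/(RPKM + 0.5)). Chd3/Chd4 and Kdm6b/Kdm6a show miR-155 KO apart from PU.1 KI and WT, and Smarca2/Smarca4 shows PU.1 KI as the lowest.

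The 2 members with the largest changes lie close together. Chd3 (NCBIM37 chr11:69156775-69182928) and Kdm6b (chr11:69212010-69227177) are both on the minus strand and 29.1 kb apart, and their neighbours were looked up after these values had been seen. Kcnab3, a potassium channel subunit 10.2 kb to the other side of Chd3, averaged 0.475 ± 0.106 RPKM in PU.1 KI, 1.33 ± 0.14 in miR-155 KO and 0.369 ± 0.046 in WT (SD). Only its miR-155 KO libraries reached 1 RPKM, so it passed the filter through the group where it is high. Its log2 fold change in miR-155 KO against WT was 1.08 ± 0.08, and for that reason no p-value is given for it. Between Chd3 and Kdm6b, Cyb5d1 stood at -0.10 ± 0.07 (adjusted p = 0.236) and Lsmd1 at -0.07 ± 0.11 (adjusted p = 0.591) in the same contrast, and neither was called.

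Beyond these, Cntrob and Trappc1 were higher in miR-155 KO than in WT by 0.34 ± 0.07 and 0.16 ± 0.06, and Wrap53, Trp53 and Mpdu1 were lower, with log2 fold changes of -0.30 ± 0.07, -0.27 ± 0.09 and -0.21 ± 0.07. Among the 11 tested genes of the stretch, log2 fold changes above 1 were those of Chd3, Kdm6b and Kcnab3. Chd3 and Kdm6b define the stretch, and Kcnab3 passed the filter only through miR-155 KO. How many genes exceeded 1 is therefore not read as a result about the stretch. In PU.1 KI against WT the 11 genes had log2 fold changes between -0.02 and 0.25. The predicted gene Gm17305 overlaps Chd3 by 5390 bp on the other strand, at no more than 1.81 RPKM in any library, and whether counting used the strand was not stated in the labels.

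**Figure D5:**
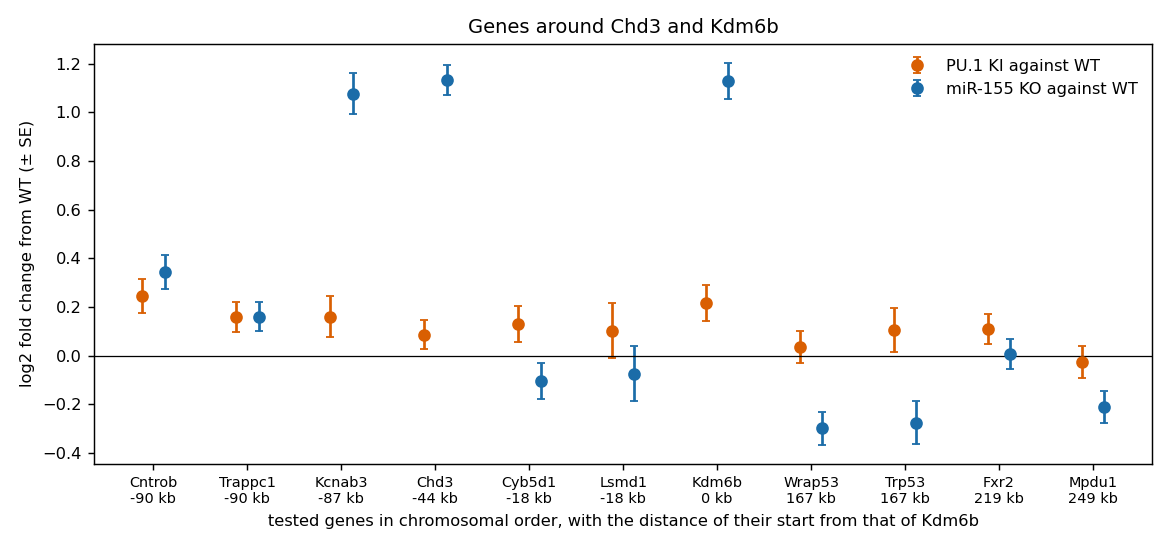
log2 fold change ± SE from WT of the 11 tested genes around Chd3 and Kdm6b in chromosomal order, with the distance of each start from that of Kdm6b in kb, in PU.1 KI (orange) and miR-155 KO (blue). Kcnab3, Chd3 and Kdm6b lie above 1 in miR-155 KO, with Cyb5d1 and Lsmd1 between Chd3 and Kdm6b near 0.

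Set beside the seed matches, the 7 tested genes with a match that includes the whole seed did not move one way. In miR-155 KO against WT Hdac9, Kdm2a, Hdac4 and Chd7 were higher, and Smarca4, Smarca5 and Hdac2 were lower. Their median log2 fold change was 0.22 in miR-155 KO and 0.06 in PU.1 KI, beside 0.13 in miR-155 KO and 0.04 in PU.1 KI for the 865 genes with such a match. With the 8-base match alone the median in miR-155 KO was 0.46 over 3 members and 0.20 over 312 genes. Of the 6 members that changed by at least 1.5-fold in miR-155 KO, Hdac9 is the one with a match.

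Partners of these enzymes that carry other names were counted in the same fits, to be read beside all rows tested, of which 27.2% were higher and 35.3% lower in miR-155 KO against WT, with a median of -0.05, and 23.7% higher and 4.03% lower in PU.1 KI against WT. Of 14 tested BAF and PBAF subunits without the Smarc prefix, 4 were higher and 3 lower in miR-155 KO against WT, and 4 were higher and none lower in PU.1 KI as deposited, or 4 higher and 3 lower under each other scaling. Phf10, a PBAF subunit, had the largest of these changes, with means of 31.4 ± 3.0 RPKM in PU.1 KI, 52.0 ± 2.5 in miR-155 KO and 24.3 ± 2.0 in WT (SD), and log2 fold changes from WT of 0.36 ± 0.07 in PU.1 KI and 1.08 ± 0.07 in miR-155 KO. Of 24 subunits of ISWI, INO80, SRCAP and other remodellers, 3 were higher and 11 lower in miR-155 KO, with a median of -0.10. In PU.1 KI 3 were higher and 1 lower as deposited, and none higher and 7 lower under each other scaling. For the rescaled PU.1 KI counts of both lists, the shares of all rows were 17.4% higher and 15.8% lower by median of ratios. By quantile normalization they were 15.8% and 16.1%.

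NuRD and deacetylase corepressors moved both ways. Of 10 NuRD subunits other than the Chd and Hdac members, 3 were higher and 5 lower in miR-155 KO against WT, among them Rbbp4, a histone-binding subunit, with means of 40.6 ± 2.0 RPKM in PU.1 KI, 31.4 ± 1.8 in miR-155 KO and 42.7 ± 2.8 in WT (SD). Of 22 other corepressor subunits 8 were higher and 5 lower as deposited, 11 and 5 by median of ratios and 11 and 6 by quantile normalization. Of all rows 34.1% were higher and 34.0% lower by median of ratios, and 31.2% and 36.9% by quantile normalization. Brms1l, of the Sin3 complex, averaged 3.66 ± 0.21 RPKM in PU.1 KI, 7.41 ± 0.37 in miR-155 KO and 3.58 ± 0.16 in WT, and Sap30, of the same complex, averaged 7.98 ± 0.32 in PU.1 KI, 4.12 ± 0.43 in miR-155 KO and 6.16 ± 0.48 in WT.

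Writers without the Setd or Prmt name were also divided. Of 15 histone acetyltransferases 6 were higher and 2 lower in miR-155 KO against WT, with Kat2b higher at 4.26 ± 0.24 RPKM against 2.99 ± 0.10 in WT and Naa40 lower at 25.9 ± 2.9 against 39.5 ± 2.3 in WT (SD). Of 22 other histone methyltransferases, all but the arginine methyltransferase Carm1 acting on lysines, 5 were higher and 6 lower as deposited, 10 higher and 5 lower by median of ratios and 9 higher and 6 lower by quantile normalization. The shares of all rows were 34.1% higher and 34.0% lower by median of ratios, and 31.2% and 36.9% by quantile normalization. Of 11 subunits of COMPASS and related complexes, 3 were higher and 5 lower, with Paxip1 at 8.84 ± 0.92 RPKM in miR-155 KO against 13.5 ± 0.5 in WT.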

How the data were processed

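Polyadenylated RNA of 14 cultures was sequenced. The RPKM values are those the authors deposited, in a table of 22295 rows. Trim Galore, TopHat and the mouse build NCBIM37 are named in the submitters' processing notes, while the read counter, the annotation and the use of strand were not stated there. All 14 value columns matched a sample by name, 0 columns were left unmatched, and 0 of 91 pairs of libraries held identical values. The labels call the replicates biological but do not tie them to animals, so p-values measure the spread between these libraries.

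Rows with at least 1 RPKM in at least 4 libraries (9627) were tested on log2(RPKM + 0.5) with limma 3.58.1 in R 4.3.3, with 1 mean per genotype, a trended prior and Benjamini-Hochberg adjustment over all tested rows, called at 0.05. Fold changes on this scale understate changes of low genes. Ratios within libraries were tested by exact permutation. Python 3.11.15, numpy 2.4.6, pandas 2.3.3, scipy 1.17.1 and matplotlib 3.10.9 were used for the rest. Depth was recovered from the 250 lowest values of genes spanning under 2500 bp: at the recovered depth 73.2% to 82% of those values were whole reads within 0.01 reads, too few for a count test. Seed matches were searched in the longest 3′ UTR per gene of GENCODE M21 (GRCm38), and 2 members (Hdac4 and Prmt1) were matched to it by symbol.

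On simulated data for miR-155 KO against WT, with 9627 genes, 46 of 50 genes changed 1.5-fold and 25 of 50 changed 1.2-fold were recovered, and 6 of 9427 unchanged genes were called. For PU.1 KI against WT these were 47 and 27 of 50, with 10 unchanged genes called. The simulated noise was independent between genes, few genes were changed and no library was shifted in scale. In the data 62.5% of all rows were called in miR-155 KO against WT. The simulated figures therefore do not give the error rate of the calls above. The rule for members reads symbols alone, but the choice of these gene families, of the partner lists and of the tests was made with earlier results of these data known. Given library by library were the 8 called members with the largest change in each comparison, the member of each class with the highest mean and that with the smallest adjusted p, members called in opposite directions, Hdac4, Sirt1, Kdm5d and Kdm6a; from each partner list at most the 2 genes with the smallest adjusted p were named. Smarca2, Kdm2a and the neighbours of Chd3 were chosen after their values were seen. Alternatives were other pseudocounts, filters and scalings, a replicate block, fits on the compared genotypes alone and leaving out each library. Whether replicate numbers pair libraries was not settled. Of 13 same-number pairs 7 had a correlation of deviations over 0.1, over a range of -0.387 to 0.466, and pairs of unlike number were not compared with them.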

Additional observations from a re-analysis of the deposited data

Results flagged for a closer look

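In 3 of 75 groups (4%), each the 4 or 5 libraries of 1 genotype, 1 library stood apart from the rest of its group. In these 3 groups, all of 5 libraries, the gap exceeded 0.71 of the group's range. At that size chance picks out about 1 group of 5 libraries in 20. The WT groups of 4 libraries were held to a higher limit, set for the same rate, and none of them was flagged. Chd4 had 69.2 RPKM in miR-155 KO library 5, with the nearest of the others at 63.1. Prmt6 had 2.23 RPKM in the same library, with the nearest at 1.64. Kdm5d had 7.36 RPKM in PU.1 KI library 5, with the nearest at 6.44. Without miR-155 KO library 5 the group had 21 higher and 22 lower members in miR-155 KO against WT.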

How the results depend on the processing

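Of 1704 values of named members under the alternatives, 1619 kept their side of the threshold, 62 lost a call, 22 gained one and 1 was called with the sign turned. Of the 1619, 26 were uncalled values whose sign differed from the one as deposited. The turned call was that of Chd7, which in miR-155 KO against PU.1 KI stood at -0.07 as deposited, at 0.07 by median of ratios (not called) and at 0.0855 after quantile normalization (adjusted p = 0.0496). Pseudocounts of 0.1 and 1 and a fit with no trend changed no call of a named member. In PU.1 KI against WT, the higher members numbered 17 as deposited, 10 by median of ratios and 9 by quantile normalization, and 9 to 20 leaving out 1 library. The lower members numbered 1 as deposited, 13 under either scaling, 2 with no filter, 2 with both genotypes fitted alone and 1 to 3 leaving out 1 library. Of all rows 4.03% were lower as deposited, 15.8% by median of ratios and 16.1% by quantile normalization. In miR-155 KO against WT, 12 members were higher with a filter of 5 RPKM, where fewer members were tested, and leaving out 1 library gave 20 to 23 higher and 17 to 23 lower. In miR-155 KO against PU.1 KI, 6 were higher with that filter and 26 under either scaling, 16 were lower after quantile normalization, and leaving out 1 library gave 11 to 15 higher and 24 to 31 lower. The cause of the scaling shifts was not tested. With a replicate block, although it is not settled whether the numbers pair the libraries, PU.1 KI against WT gave 19 higher and 4 lower, miR-155 KO against WT 22 and 24, and miR-155 KO against PU.1 KI 14 and 30. Leaving out 1 library left 0 to 0 called ratios in PU.1 KI against WT, 0 to 8 in miR-155 KO against WT and 0 to 9 in miR-155 KO against PU.1 KI. The smallest exact p then rises in the contrasts that lose a library, and the adjustment over all tests changes for the others. Seed matches numbered 3 with 8-base matches alone and 12 with any match of 7 or 8 bases.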
